A study of Mus musculus with 10 samples.

Results

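The expression of 40 skeletal muscle genes was described in whole mouse colon, in mice in which the tumour suppressor gene Trp53 was deleted in part of the cells (KO) and in mice labelled WT. The genes were chosen by name, and they had been picked with their measured KO over WT ratios in this tissue already known, so those ratios are given below as a description with no test. All 40 gene names were found among the 36610 gene names of the array, on 76 of its 56605 probes. Each gene was represented by its brightest probe in tissue, and 39 of the 40 genes were well above background in every KO channel or in every WT channel.

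Skeletal muscle fibres contract when myosin of the thick filament pulls on actin of the thin filament within a repeating unit, the sarcomere, whose borders are the Z-discs. When a nerve signal has excited the fibre, a voltage sensor in its membrane responds and calcium leaves the sarcoplasmic reticulum. Troponin on the thin filament then lets myosin bind. Fast fibres and slow fibres use different myosins, troponins and calcium pumps. The wall of the mouse colon is built of smooth muscle, and skeletal muscle is found around the anal canal.

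RNA was hybridised to 10 Agilent arrays with 60-base probes and a different RNA in each dye, 4 arrays with whole colon and 6 with colon organoids, which are epithelial cultures grown from isolated crypts. The tissue came from male mice of a cross of Axin2CreERT2, a recombinase that tamoxifen switches on in cells expressing Axin2, with Trp53 fl/fl. Trp53 is thus deleted in the KO mice only in such cells and their progeny, and the labels do not give the alleles of the WT mice. The mice drank 2% dextran sodium sulfate (DSS), a polymer that damages the colon lining, over 5 to 7 days, and were killed 2 months after DSS. Each of 2 KO mice was paired with 1 of 2 WT mice, and each pair was hybridised on 2 arrays with the dyes exchanged. On 1 of these arrays the source label of the KO sample gives replicate 1 whereas the array's title and the animal label give replicate 2, and the latter were followed in forming the pairs. Organoids came from VillinCreERT2 x Trp53 fl/fl mice, in which recombination occurs in epithelium, and KO cultures were made with 800 nM 4OH-tamoxifen for 2 days and selected with Nutlin-3A. WT and KO organoids grew with surrogate Wnt and CHIR-99021, and KOWI organoids were KO cultures in medium lacking both. There were 2 cultures of each kind, which the labels do not state to be from separate mice. On every organoid array culture 1 was in Cy3 and culture 2 in Cy5, so culture and dye cannot be told apart.

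The tissue arrays lay on 1 slide, as did the organoid arrays. None of the tissue arrays had a saturated spot, and 1.33% to 4.41% of their spots were left out as outliers by the scanner software. Outliers made up 0.81% and 2.18% of spots on the organoid arrays of KO and WT, and 13.71% to 16.26% on those with KOWI. The Trp53 probe read 9.24 and 9.90 (log2 intensity) in the KO mice against 9.70 and 9.86 in the WT mice, so the tissue groups overlapped. In organoids it read 6.83 and 7.25 in KO against 8.54 and 7.60 in WT. Whether the probe lies in the deleted part of the gene was not determined here.

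The probes of the fast myosin heavy chains are shown because these genes lie beside each other on chromosome 11 and are closely related in sequence. The capitals mark a run of 19 bases that the Myh1 and Myh8 probes share, the longest run that the chosen probe of any member shares with a probe for another gene on the array. The lines are probes as the scanner files give them, 5′ to 3′, at mm9 positions chr11:67037938-67037997 for Myh1, chr11:67121925-67121984 for Myh8, chr11:67010910-67010969 for Myh2 and chr11:67073834-67073893 for Myh4, all on the plus strand.
Myh1: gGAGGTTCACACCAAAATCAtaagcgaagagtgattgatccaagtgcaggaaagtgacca
Myh8: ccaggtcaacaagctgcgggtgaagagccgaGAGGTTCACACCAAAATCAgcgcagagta
Myh2: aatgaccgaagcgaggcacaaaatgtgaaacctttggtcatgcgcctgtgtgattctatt
Myh4: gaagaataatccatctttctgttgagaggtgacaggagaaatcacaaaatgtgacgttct
No other pair of these 4 probes shared more than 12 bases in a row. The probes of Mylk4, Tmem182, Abra and Unc45b are shown because these genes had the highest KO over WT ratios of the members. They lie at chr13:32792837-32792896 on the minus strand, chr1:40913351-40913410 on the plus strand, chr15:41697520-41697579 on the minus strand and chr11:82756472-82756531 on the plus strand (mm9), and nothing in them is in capitals.
Mylk4: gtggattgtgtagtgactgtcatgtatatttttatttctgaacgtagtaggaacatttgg
Tmem182: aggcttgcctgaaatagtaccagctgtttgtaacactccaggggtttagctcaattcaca
Abra: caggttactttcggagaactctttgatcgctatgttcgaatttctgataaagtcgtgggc
Unc45b: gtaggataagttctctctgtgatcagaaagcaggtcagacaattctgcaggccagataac
Of the 40 chosen probes, 6 covered more than 100 bases of genome with their 60 bases, so they cross a splice junction (Actn3, Ckm, Ckmt2, Myl1, Mylpf and Ryr1). The Myl1 probe shared 18 bases with the probe for Myl3, a slow fibre light chain. Exon and UTR positions of the other probes were not analysed here.

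In the colon of KO mice, 37 of the 39 members with a value in both pairs read higher than in the paired WT mouse, in both pairs. Of all 16094 measured genes, 31.4% did so. The median ratio of the members was 0.76 on the log2 scale (0.77 in pair 1 and 0.67 in pair 2), against -0.0037 for all measured genes. The remaining members were Smpx and Fbxo32, whose pairs pointed in opposite directions, and Pvalb had no value in pair 1 because both of its spots there were outliers. In 9 of the 39 members both pairs exceeded a 2-fold difference, against 0.553% of all measured genes. Since these ratios led to the choice of the genes, nothing is read from either share. Limma over the 16094 genes called none in either direction (0%) at a Benjamini-Hochberg adjusted p of 0.05, the smallest adjusted p being 0.286, while 2249 genes had an unadjusted p under 0.05. With whole tissue, more muscle fibres and more RNA per fibre cannot be told apart.

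**Figure D1:**
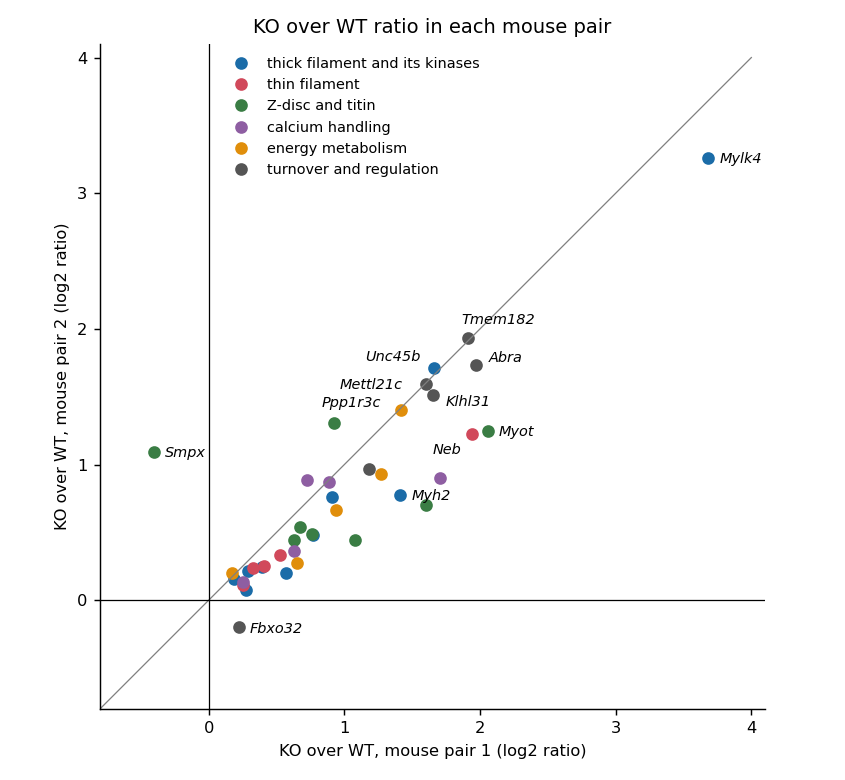
KO over WT ratio (log2) of the members in mouse pair 1 (horizontal) and pair 2 (vertical), each point a gene coloured by its role, with the line of equal ratios in grey. The 37 points to the right of and above the zero lines are above 0 in both pairs, Mylk4 stands farthest out, and 33 of 39 points lie below the grey line. For this last count the share of all measured genes is not given here.

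Among the myosin heavy chains, which are the motors of the thick filament, Myh2 of fast oxidative fibres read 11.07 and 15.93 (log2 intensity, pair 1 and pair 2) in the KO mice and 9.65 and 15.16 in the WT mice. Each KO mouse was above its own partner, but the WT mouse of pair 2 was far above the KO mouse of pair 1. The Myh2 ratio was 1.10 ± 0.45 (log2, SD, n = 2 pairs). Here and below the SD is between pairs, after the dye orientations were averaged, and does not show how far these differed. Myh4, the myosin of the fastest mouse fibres, read 16.26 and 16.13 in KO and 15.97 and 15.92 in WT, and here the groups did not overlap, at a ratio of 0.26 ± 0.05. Myh1, of fast fibres between these types, had a ratio of 0.17 ± 0.14 with overlapping groups. Myh8, the myosin of the perinatal period, had a ratio of 0.32 ± 0.11 on the probe that shares its run with Myh1. Its 3 other probes shared at most 15 bases in a row with a probe for another gene, and these longest runs were not with Myh1. One of them was well above background in all 4 KO channels and in 1 of the 4 WT channels, with ratios of 1.40 in pair 1 and 2.27 in pair 2. The other 2, at 0.64 and 0.43, were well above background in at most 2 of the 4 KO and 1 of the 4 WT channels.

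The myosin light chains Myl1 and Mylpf, which stiffen and tune the myosin lever, had ratios of 0.17 ± 0.02 and 0.39 ± 0.26. Mybpc2, the fast form of myosin-binding protein C, had a ratio of 0.62 ± 0.20, and Mylk2, the kinase that phosphorylates the light chain of skeletal myosin, one of 0.84 ± 0.11. Mylk4, a further member of the myosin light chain kinase family, had the highest ratio of the 40 genes. It read 10.89 and 12.22 in the KO mice and 7.21 and 8.96 in the WT mice, so the groups were well apart. The difference was 3.47 ± 0.30, or 11.1-fold, although only 2 of the 4 WT channels were well above background. It was 4.34 with the scanner software's ratio and 4.37 in the authors' deposited value table, and 1.73 as the mean of its probes. A second Mylk4 probe was not above background in any channel. Unc45b, a chaperone that folds muscle myosin, read 9.85 and 10.66 in KO against 8.20 and 8.95 in WT, a difference of 1.69 ± 0.04 with no overlap.

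Of the 5 thin filament genes, only Neb exceeded 2-fold in both pairs. Acta1, the actin of skeletal muscle, read 15.64 and 16.69 in KO and 15.11 and 16.36 in WT, with a ratio of 0.43 ± 0.14 and overlapping groups. The fast troponins, the calcium switch on actin, had ratios of 0.18 ± 0.10 for Tnnc2, 0.28 ± 0.06 for Tnni2 and 0.33 ± 0.11 for Tnnt3. Neb, which encodes nebulin, the giant protein that runs along the thin filament, read 11.10 and 12.42 in KO and 9.16 and 11.19 in WT. Its ratio of 1.58 ± 0.51 exceeded 2-fold in both pairs, yet the WT mouse of pair 2 stood 0.10 above the KO mouse of pair 1.

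At the Z-disc, Myot (myotilin, which cross-links actin) read 12.65 and 13.65 in KO and 10.59 and 12.40 in WT, without overlap. The Myot ratio of 1.65 ± 0.57 rests on 1 dye orientation in pair 2. Actn2 and Actn3, the actinins that anchor thin filaments, had ratios of 0.76 ± 0.45 and 0.61 ± 0.09. Ttn (titin, the molecular spring of the sarcomere) had a ratio of 1.15 ± 0.63, again with 1 dye orientation in pair 2, and Tcap, which caps titin, one of 0.54 ± 0.13. Myoz1, a calcineurin-binding Z-disc protein, had a ratio of 0.63 ± 0.20. Xirp2, an actin-binding protein, was not well above background in any WT channel and was so in 3 of the 4 KO channels. It read 7.74 and 8.70 in KO and 6.82 and 7.40 in WT, near background, so no size of change is given.

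Smpx, a small protein of the muscle cytoskeleton encoded on the X chromosome, went against the others. It read 11.62 in the KO mouse and 12.02 in the WT mouse of pair 1, and 12.01 and 10.91 in those of pair 2. The WT mouse of pair 1 thus had the highest of the 4 levels. The 3 other Smpx probes gave ratios of -0.33, -0.31 and -0.31 in pair 1 and 1.04, 1.17 and 0.37 in pair 2, so the 3 probes above background in every channel had the same opposite signs. The fourth was well above background in 1 KO and 1 WT channel, and its dye orientations in pair 2 gave -0.15 and 0.89.

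Calcium handling genes had a median ratio of 0.81 over 5 genes. Cacna1s, the voltage sensor subunit of the fibre membrane, read 12.85 and 13.79 in KO and 11.14 and 12.89 in WT, a ratio of 1.30 ± 0.57 with the pair 2 WT mouse just above the pair 1 KO mouse. Ryr1, the calcium release channel it couples to, had a ratio of 0.50 ± 0.19. Atp2a1, the calcium pump of fast fibres, had a ratio of 0.88 ± 0.01, and Casq1, the calcium store protein, one of 0.81 ± 0.11. The dye orientations of Atp2a1 gave 0.74 and 1.03 in pair 1 and 1.12 and 0.62 in pair 2. Sln (sarcolipin, an inhibitor of the pump) differed by 0.20 ± 0.09. Pvalb (parvalbumin, a calcium buffer of fast fibres) read 14.23 in KO and 13.89 in WT in pair 2. In none of the 5 genes with 2 pairs were both KO mice above both WT mice.

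Among genes of energy metabolism, Ppp1r3c, which targets a phosphatase to glycogen, read 10.06 and 11.02 in KO and 8.65 and 9.62 in WT, with no overlap and a ratio of 1.41 ± 0.01. Its dye orientations gave 1.185 and 1.649 in pair 1 and 1.241 and 1.558 in pair 2. The creatine kinases Ckm of the cytosol and Ckmt2 of mitochondria had ratios of 0.80 ± 0.19 and 1.10 ± 0.24. Pygm, the glycogen phosphorylase of muscle, had a ratio of 0.46 ± 0.27 and the glycolytic enzyme Eno3 one of 0.19 ± 0.02.

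The genes of turnover and regulation had a median ratio of 1.59 over 6 genes. Tmem182, a membrane protein of muscle, read 9.97 and 11.07 in KO and 8.05 and 9.14 in WT, a ratio of 1.92 ± 0.01. Abra, an actin-binding protein of striated muscle, read 10.53 and 11.80 in KO and 8.56 and 10.07 in WT, a ratio of 1.85 ± 0.17. Klhl31, a Kelch-family protein of muscle, and Mettl21c, a lysine methyltransferase, had ratios of 1.58 ± 0.10 and 1.60 ± 0.01, the latter 2.22 with the scanner software's ratio. In all 4 of these genes both KO mice were above both WT mice. Of the ubiquitin ligases of muscle wasting, Trim63 had a ratio of 1.07 ± 0.15 with overlapping groups and 1 dye orientation in pair 2. Fbxo32 read 12.59 and 12.59 in KO against 12.36 and 12.79 in WT, a ratio of 0.01 ± 0.30.

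**Figure D2:**
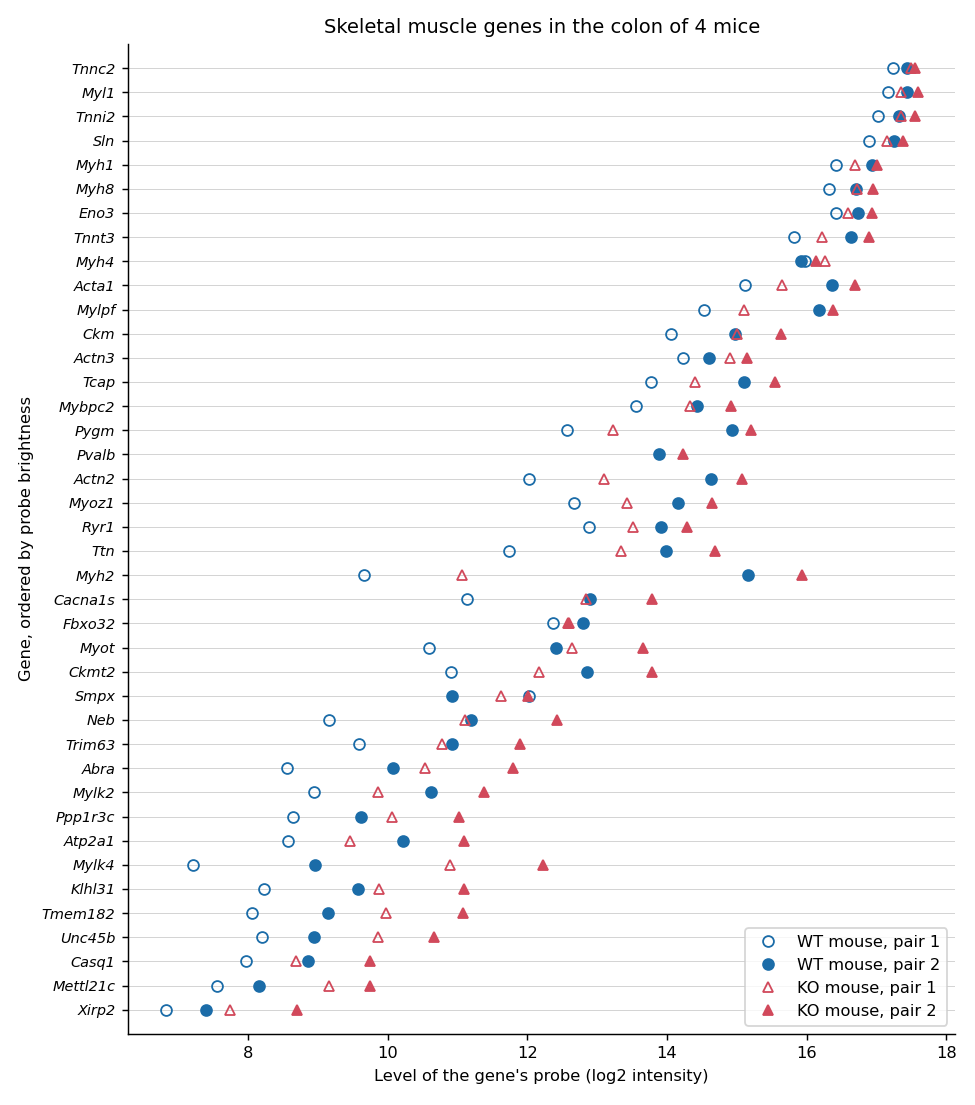
Level (log2 intensity) of each member's probe in the 4 mice, with genes ordered by probe brightness, circles for WT, triangles for KO, open symbols for pair 1 and filled symbols for pair 2. In Mylk4 both triangles lie to the right of both circles, while in Myh2 the filled symbols, at 15.16 and 15.93, lie far to the right of the open ones, at 9.65 and 11.07.

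Both KO mice were above both WT mice in 15 of the 39 members, against 13.8% of all measured genes. Nothing is read from this share either, since the KO over WT ratios led to the choice of the genes. In 23 of the 39 members the WT mouse of pair 2 was above the KO mouse of pair 1. This was so in 8911 of the 16094 measured genes, a similar share. The median KO over WT difference of the members changed with each mouse left out. It was 0.13 without the WT mouse of pair 1 and 0.20 without the KO mouse of pair 2. It was 1.33 without the KO mouse of pair 1 and 1.37 without the WT mouse of pair 2. Leaving out a single mouse breaks its pair, so the difference between the pairs, given below, enters these medians. The members over 2-fold numbered 5, 6, 24 and 27 in the same order, and 11 without pair 1 and 15 without pair 2. The shares of all measured genes in these settings are not given here, so nothing is read from these counts. The 2 pairs differed as well, and the KO over WT ratio that led to the choice of the genes does not contain that difference. The pair 2 mouse was above the pair 1 mouse in both KO and WT in 37 of 39 members, against 46% of all measured genes. The median difference of pair 2 over pair 1 was 0.97 (log2, the mean of KO and WT), with 0.96 between the KO mice and 1.04 between the WT mice, against 0.05 for all measured genes. It was larger in size than the KO over WT ratio in 24 members and smaller in 15, a share near the 67.5% of all measured genes in which it was larger.

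Myh2 led this difference with 5.18 (4.87 between the KO mice and 5.50 between the WT mice), the highest of the 16094 measured genes. That value rests on 1 of 3 Myh2 probes. Another was well above background in no channel, at 6.82 and 6.61 in KO and 6.93 and 6.55 in WT, and the third had no value in pair 2. The neighbours of Myh2, Myh1, Myh8 and Myh4, differed between pairs by 0.42, 0.31 and -0.09. After Myh2 came Actn2 with 2.30, Pygm with 2.17, Ttn with 1.80, Ckmt2 with 1.78, Neb with 1.68 and Atp2a1 with 1.64. Both mice of pair 2 were above both mice of pair 1 in 23 of 39 members, against 36.8% of all measured genes, and by more than 2-fold in 4 of them, Myh2, Mylpf, Actn2 and Pygm, against 0.64%. Each pair was hybridised on arrays of its own, so for these levels pair and array cannot be told apart, and no test was made.

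**Figure D3:**
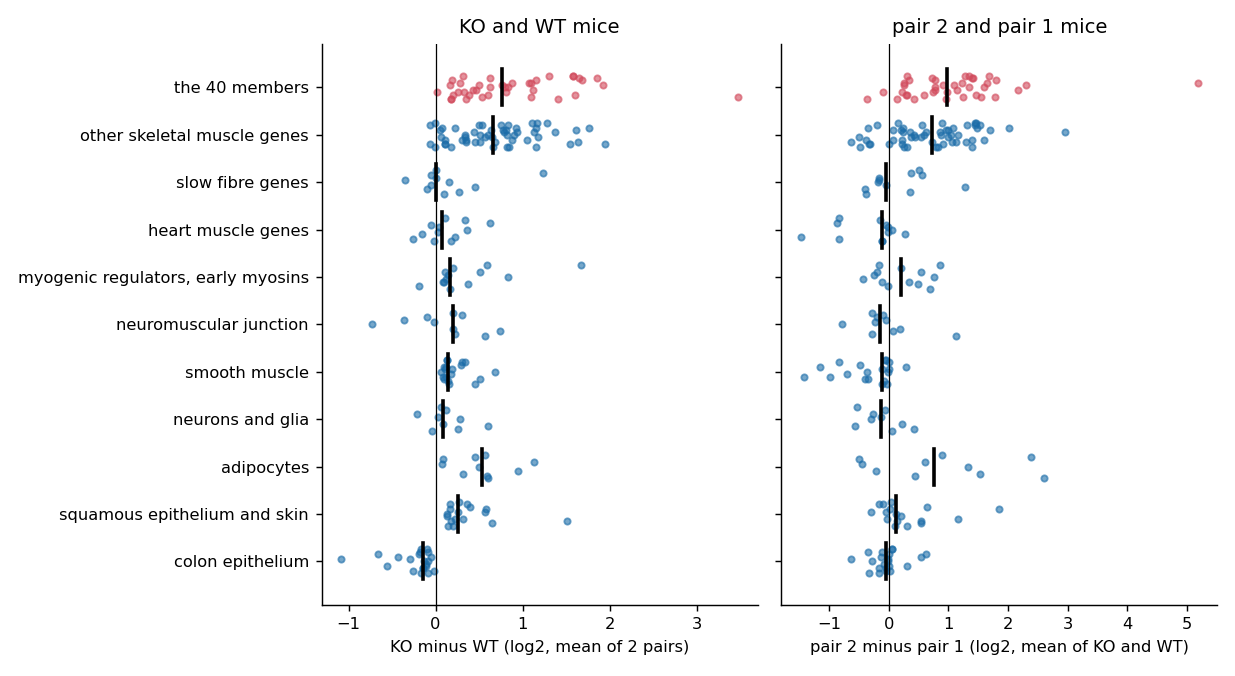
Differences (log2) for every gene of the members and of 10 comparison lists, KO minus WT on the left and pair 2 minus pair 1 on the right, with each point a gene and the black bar the median of the list. Most members and most of the other skeletal muscle genes lie to the right of 0 on both sides, with medians of 0.76 and 0.66 for KO minus WT and of 0.97 and 0.72 for pair 2 minus pair 1, and the slow fibre genes, of which 6 of 11 were measured, have medians of 0.01 and -0.04.

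The ratio tended to be larger where the probe was dimmer. Members whose probes averaged under 10 (log2 intensity) had a median ratio of 1.58 (9 genes), those from 10 to 12 of 1.07 (5 genes), those from 12 to 14 of 1.10 (9 genes) and those of 14 and over of 0.32 (16 genes). Over all measured genes the median size of the ratio in the same bands was 0.19, 0.15, 0.10 and 0.04. Across the 39 members Pearson's r of brightness and ratio was -0.71 and Spearman's rank correlation -0.81, across genes that share the same 4 arrays. Probes of the same gene showed it in some members and not in others. The 2 brightest Myl1 probes, both averaging 17.39, gave 0.17 and 0.21, while another, at 10.79, gave 1.03. For Actn2 the probes at 13.75 and 10.03 gave 0.76 and 1.35, and for Pygm those at 14.02 and 9.14 gave 0.46 and 0.74. Other members ran the other way, with 0.50 at 13.67 and 0.03 at 8.79 for Ryr1, 1.58 on the brightest probe and 1.08 at 8.35 for Neb, 1.58 at 9.71 and 0.97 at 7.84 for Klhl31, and 1.07 at 10.97 and 0.21 at 7.92 for Trim63. Ttn did both, with 1.15 at 13.33, 1.40 at 9.02, 1.87 at 8.92 and 0.19 at 8.51. The choice of probe thus moved single ratios: as the mean of all its probes, background ones included, the ratio was 0.50 for Myh2, 0.79 for Neb, 0.35 for Trim63 and 1.13 for Tmem182. Ratios of 33 of 39 members were larger in pair 1 than in pair 2. The share of all measured genes is not given here, so nothing about the members is read from this count. The part of brightness in the ratios was not tested, and the ratios of the brightest probes and of the dimmer ones are not compared as sizes of change.

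**Figure D4:**
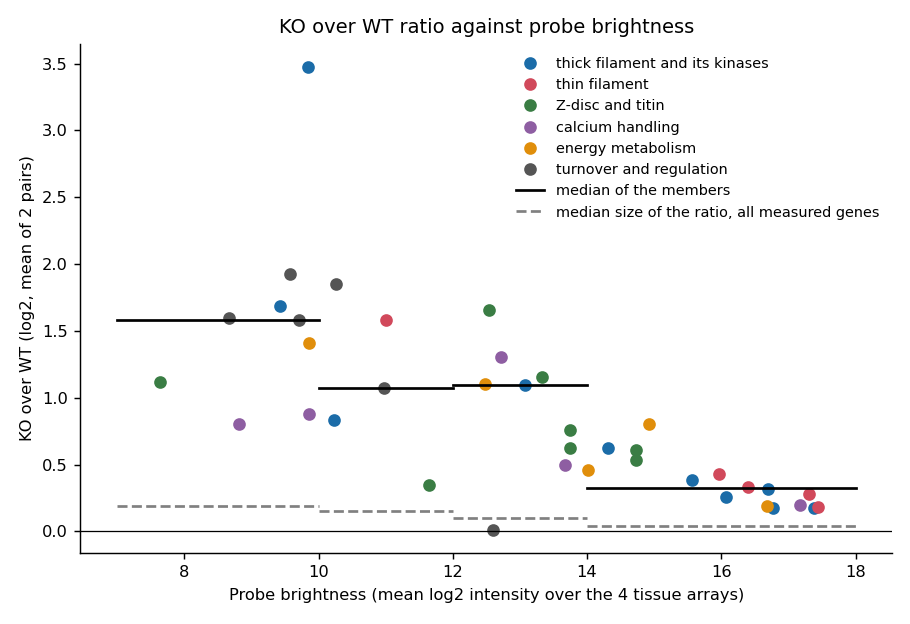
KO over WT ratio (log2, mean of 2 pairs) of each member against the brightness of its probe (mean log2 intensity over the 4 tissue arrays). Black bars are the members' medians in 4 bands of brightness, 1.58, 1.07, 1.10 and 0.32, and grey dashed bars are the median size of the ratio over all measured genes, 0.19, 0.15, 0.10 and 0.04.

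Of 55 further skeletal muscle genes with values, 42 were measured, that is, well above background in every KO or every WT channel. Of these 42, 39 were above 0 in both pairs and 1 below 0 in both, at a median of 0.79. The genes named from this and the next lists are the highest and the lowest of those measured. Tmod4, which caps thin filaments, stood at 1.94 and Fbp2, the fructose bisphosphatase of muscle, at -0.07. Of 11 slow fibre genes 6 were measured, with 2 above 0 in both pairs and 3 below, at a median of -0.05, from 1.23 for the calcium store protein Casq2 to -0.36 for the slow troponin Tnni1. The light chain Myl3 stood at 0.46 and differed by 1.28 between pairs, and the slow myosin Myh7 was not measured. Of 12 heart muscle genes 4 were measured, with 2 above 0 in both pairs and 1 below, at a median of 0.17, and with Pln (phospholamban) highest at 0.62 and the atrial light chain Myl7 lowest at -0.26. Of 13 myogenic regulators and genes of early muscle with values 6 were measured, with 5 above 0 in both pairs and 1 below, from 1.67 for the myogenic factor Myf6 to -0.19 for Mef2d. Of 10 genes of the neuromuscular junction 3 were measured, with 1 above 0 in both pairs and 1 below, from 0.23 for Colq, which anchors acetylcholinesterase, to -0.73 for Dok7, which activates the receptor kinase MuSK. These lists were drawn up with results of these data known, and the counts carry no test.

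Markers of other tissues of the region were examined in the same way. All 21 colon epithelium genes were below 0 in both pairs, at a median of -0.14, from -0.02 for Krt20, a keratin of surface cells, to -1.08 for Cdx2, a transcription factor of the intestine. Of 16 measured genes of squamous epithelium and skin, 12 were above 0 in both pairs and none below, at a median of 0.24, with Flg (filaggrin) highest at 1.51 and Krt13 lowest at 0.13. Of 7 measured adipocyte genes 6 were above 0 in both pairs, at a median of 0.57, from 0.95 for the lipid droplet protein Plin4 to 0.32 for Fabp4. Of 18 measured smooth muscle genes 15 were above 0 in both pairs and none below, at a median of 0.14, from 0.68 for Itga8 to 0.06 for Mylk. The 8 measured genes of enteric neurons and glia had a median of 0.07, and no gene of the male accessory glands was measured.

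The summed intensity of each list, in which bright probes weigh most, was set beside that of the muscle genes. That of the 39 members was 20.44 and 20.93 (log2) in the KO mice and 20.08 and 20.66 in the WT mice, with the WT mouse of pair 2 above the KO mouse of pair 1. Summed squamous and skin markers read 20.91 and 20.87 in KO and 20.58 and 20.80 in WT, and those of adipocytes 15.11 and 16.58 in KO and 14.71 and 16.02 in WT. Smooth muscle read 20.86 and 20.51 in KO and 20.64 and 20.45 in WT, and colon epithelium 21.10 and 21.07 in KO and 21.27 and 21.17 in WT. The adipocyte sum thus had the order of the muscle sum in the 4 mice, whereas summed squamous markers were higher and summed epithelial markers lower in both KO mice than in both WT mice. Single adipocyte genes varied, with both mice of pair 2 above both mice of pair 1 in 4 of 10. Plin4 did not have this order, at 13.15 and 12.79 in KO and 12.06 and 11.99 in WT. Defining squamous keratins such as Krt5 and Krt14 were bright in all 4 mice. The part of these tissues in the muscle result was not tested.

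Of the 89 genes over 2-fold higher in both pairs, 9 were members and 20 stood in the members or any comparison list of muscle. Members made up 38 of the 16094 measured genes, and the share of the muscle lists is not given here. Since the members and lists were chosen with results of these data known, nothing is read from these counts. The 10 highest outside the members were Flg2 (3.82), Kprp (2.55), Hrnr (2.33), Wfdc21 (2.33), Sult1e1 (2.22), Vgll2 (2.17), Stfa3 (2.14), a transcript that the array lists by its place on chromosome 10 (2.13), 1110002E22Rik (2.09) and Sim2 (2.05). Flg2, Kprp and Hrnr are genes of the cornified layer of skin, and Vgll2 encodes a cofactor of TEAD transcription factors found in skeletal muscle.

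Organoids contain epithelium and no muscle layer. In WT organoids 9 of 40 members were well above background in all 4 channels and 19 in none, against 37 and 1 in WT tissue. The counts were 9 and 21 in KO organoids and 11 and 18 in KOWI organoids. Myh1 read 6.53 and 6.75 in WT organoids and 16.42 and 16.94 in WT colon, and Tnnc2 read 7.00 and 6.66 against 17.24 and 17.44. Mylk4, the gene with the highest tissue ratio, read 6.57 and 6.51 in WT and 6.59 and 6.59 in KO organoids and was above background in no channel. The median difference of WT tissue over WT organoids was 5.10 (log2), and 34 of 40 members exceeded 2-fold, with the caveat that the tissue and the organoid arrays were normalized apart. Those well above background throughout in WT were Mylpf, Mylk2, Acta1, Tnni2, Atp2a1, Pvalb, Eno3, Pygm and Fbxo32, and Eno3, at 15.96 and 16.04, was close to its tissue level.

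**Figure D5:**
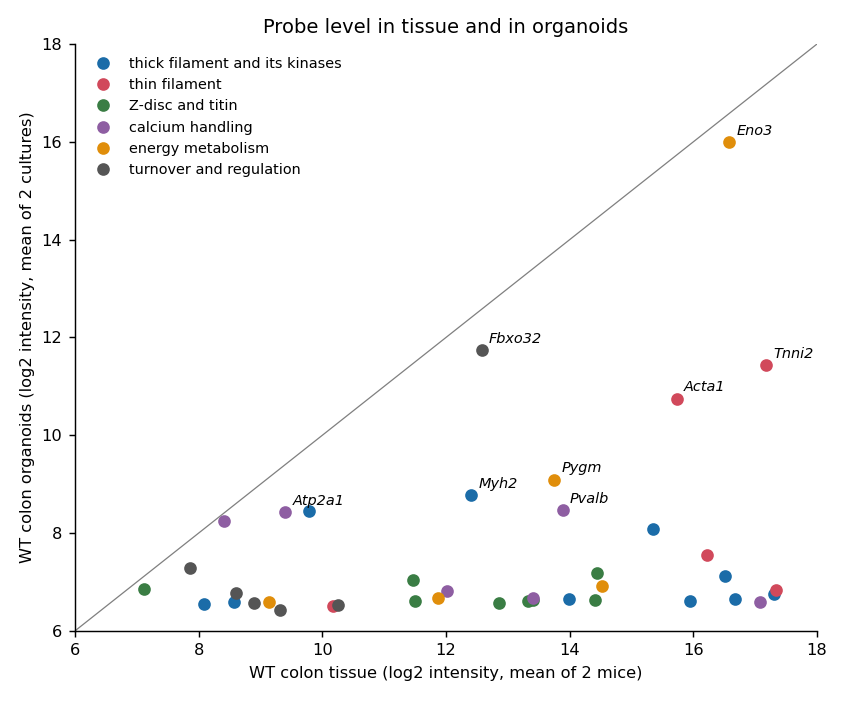
Level (log2 intensity) of each member's probe in WT colon (mean of 2 mice, horizontal) and in WT colon organoids (mean of 2 cultures, vertical), coloured by role, with the line of equal levels in grey. Most points lie toward the bottom of the plot, and Eno3 lies closest to the line among the bright genes.

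No member differed between organoid groups in limma's test over all genes. For KO over WT 6 members were tested and 0 called, against 0.0086% of 11632 genes, and none of the 6 had an unadjusted p under 0.05. Mylk2, Pvalb and Pygm were left untested because they had no value once outlier spots were left out. With outlier spots kept 9 members were tested and 0 called. For KOWI over WT 7 were tested and 0 called, against 5.35% of 11993 genes, with 2 at an unadjusted p under 0.05. The number of genes called moved with the processing, from 642 here to 105 with the scanner software's ratio. It was 17 with outlier spots kept and 0 in the value table, and no member was called in these settings. For KOWI over KO 7 were tested and 0 called, against 0.526% of 11967 genes, with 1 at an unadjusted p under 0.05. The KO over WT differences ranged from -0.50 (Acta1, SE 0.46, limma adjusted p = 1) to 0.34 (Tnni2, SE 0.19, limma adjusted p = 1). Fbxo32 read 9.39 and 10.23 in KOWI organoids against 11.76 and 11.72 in WT, a difference of -1.25 (SE 0.48) with a limma adjusted p of 0.2025. Tnni2 differed by 0.58 (SE 0.19) in the same comparison, with a limma adjusted p of 0.146, and Eno3 by -0.50 (SE 0.20) between KOWI and KO, with a limma adjusted p of 0.361. The number of cultures, 2 a group, limits the precision of these differences.

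Promoters were looked at because most members were higher together in the same mice. RefSeq windows (GRCm38.p6, 250 bases before to 50 after the start) were found for 28 of the 40 members, 29 windows in all. Searched on both strands were the E-box CANNTG, which myogenic factors bind, its form CAGCTG, which is counted in CANNTG too, and the consensus sites of MEF2 and of serum response factor (the CArG box), which did not overlap each other in these windows. CANNTG was in 79.3% of the member windows and 72.3% of all 32851 windows, CAGCTG in 51.7% and 16.3%, the MEF2 site in 24.1% and 3.19%, and the CArG box in 6.9% and 1.63%. A match is a description of the letters, and no binding was measured. The windows shown are that of Mylk4 (chr13:32783915-32784214, minus strand), which had the highest ratio, that of Myh4 (chr11:67237562-67237861, plus strand), which held all 3 kinds of site, and those of Acta1 (chr8:123894726-123895025, minus strand) and Ckm (chr7:19410844-19411143, plus strand), standard genes of muscle. Capitals mark CANNTG, MEF2 and CArG matches.
Mylk4: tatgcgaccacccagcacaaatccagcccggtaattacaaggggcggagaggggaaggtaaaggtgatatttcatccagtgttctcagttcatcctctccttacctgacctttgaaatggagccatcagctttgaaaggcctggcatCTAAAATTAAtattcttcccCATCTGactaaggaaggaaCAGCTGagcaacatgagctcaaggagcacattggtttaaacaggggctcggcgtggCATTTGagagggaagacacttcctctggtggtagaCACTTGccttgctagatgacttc
Myh4: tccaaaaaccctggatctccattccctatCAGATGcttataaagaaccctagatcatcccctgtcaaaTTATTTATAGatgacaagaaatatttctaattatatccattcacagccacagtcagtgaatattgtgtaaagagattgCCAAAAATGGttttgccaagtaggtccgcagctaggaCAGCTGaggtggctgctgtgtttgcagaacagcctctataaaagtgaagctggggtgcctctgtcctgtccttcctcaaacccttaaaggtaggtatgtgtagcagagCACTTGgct
Acta1: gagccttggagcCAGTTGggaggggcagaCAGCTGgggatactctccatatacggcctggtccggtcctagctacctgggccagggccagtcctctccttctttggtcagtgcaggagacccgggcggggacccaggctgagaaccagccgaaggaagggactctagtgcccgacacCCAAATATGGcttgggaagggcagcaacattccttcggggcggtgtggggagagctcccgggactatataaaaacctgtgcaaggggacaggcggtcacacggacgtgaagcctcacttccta
Ckm: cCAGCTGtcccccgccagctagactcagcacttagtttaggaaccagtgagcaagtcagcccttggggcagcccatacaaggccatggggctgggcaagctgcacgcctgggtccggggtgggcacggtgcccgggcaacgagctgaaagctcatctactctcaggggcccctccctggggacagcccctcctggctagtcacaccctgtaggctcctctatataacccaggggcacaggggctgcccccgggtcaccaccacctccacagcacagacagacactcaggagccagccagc
Mylk4 held 4 E-boxes and 1 MEF2 site, Myh4 3 E-boxes, 1 MEF2 site and 1 CArG box, Acta1 2 E-boxes and 1 CArG box, and Ckm 1 E-box. The window of Myh2, the member that differed most between pairs, held none of these letters, and neither did those of Klhl31, Smpx and Ryr1.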

How the data were processed

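Per the file headers, the deposited scanner files were written by Agilent Feature Extraction 12.2.0.7 from arrays designed on mm9, and they hold spot intensity with background in both dyes, well-above-background, outlier and saturation flags, and a log10 ratio of Cy5 over Cy3. The authors' deposited value table holds log2 ratios of Cy5 over Cy3, whose processing is not given beyond limma in the submitters' processing notes.

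Mean and background intensities were corrected by normexp (offset 50) and normalized by loess within each array, in limma 3.58.1 (R 4.3.3); outlier spots were left out and spots of a probe averaged. The 2 dye-swapped arrays of a mouse pair were averaged to 1 ratio, so n = 2 pairs. Levels per mouse are single channels after Aquantile normalization of the 4 tissue arrays; organoid arrays were normalized apart. Organoid ratios were solved to 6 culture values and tested with group and replicate number, which is also the dye. The p-values were adjusted by Benjamini-Hochberg over all genes measured. To count as measured, a gene needed the well-above-background flag in all channels of 1 of the groups compared. Named are all 40 members, the highest and lowest measured gene of each list, and the 10 highest non-members; a gene outside this rule was named after its values were seen. The members and lists were chosen with earlier results of these data known. The fits were checked on simulated data. Replicates differ by pair on the array, so the pair is part of the ratio. Alternatives comprised the scanner's ratio, the value table, centring, background, outliers, probe choice, filters, dye orientation, each left-out mouse or culture, and the added scalings of the pair difference. The deposited files carry no sequencing depth; the number of arrays limits the precision.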

Additional observations from a re-analysis of the deposited data

Results flagged for a closer look

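Acta1, the actin of skeletal muscle, was flagged because its KO over WT difference was above 0 in both tissue pairs and below 0 in organoids when cultures were matched by replicate number. In tissue the log2 ratio was 0.53 in pair 1 and 0.33 in pair 2, and in organoids it was -0.22 and -0.77, so the tissue mean was 0.93 above the organoid mean. The organoid values rest on that matching alone, since the KO and WT cultures hybridised together carried different numbers. The organoid levels overlapped, at 9.74 and 10.62 (log2 intensity, cultures 1 and 2) in KO and 10.18 and 11.31 in WT. KO culture 2 was above WT culture 1, with which it shared an array in the other dye. The difference was not tested.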

How the results depend on the processing

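The median KO over WT difference of the members in tissue, 0.76 on the log2 scale, was above 0 under every alternative run. The members were chosen with their ratios on these same arrays known, so this is no test of the difference. The median was 0.69 in the value table, 0.67 with median centring, 0.68 with outlier spots kept and 0.63 with the mean of all probes. It was 0.63 with only members well above background in KO and WT, 1.10 with only probes under 14 and 0.66 with KO in Cy3 only. Leaving out each pair or mouse gave 0.13 to 1.37, with 27 to 39 members above 0 and 5 to 27 members over 2-fold. The shares of all measured genes in these settings are not given here, so nothing is read from the counts. With no replicate block, comparing separate channels, each gene had a single mean difference, and this exceeded 2-fold in 15 members. That count is not comparable with the 9 members that exceeded 2-fold in both pairs. The share of all measured genes is not given here. Leaving out the WT mouse of pair 1 turned the sign of 12 members, Acta1, Myh1 and Myh2 among them, and leaving out the KO mouse of pair 2 that of 7. A mouse left out breaks its pair, so the difference between the pairs enters these values. The part of that difference in the signs was not tested.

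Pair 2 over pair 1 (0.97, with 4 members over 2-fold) was 1.27 with 7 members when channels were median-centred and 1.28 with 7 members on the scanner's processed signal. These scalings were chosen after seeing the data. The shares of all measured genes under them are not given here, so nothing is read from the counts of 7. In organoids the medians of the members tested ranged over left-out cultures from -0.19 to 0.37 for KO over WT, from -0.18 to 0.01 for KOWI over WT and from -0.45 to 0.14 for KOWI over KO. The members called for KOWI over WT numbered 0 to 1 (Fbxo32 without the KO culture 1), and 2 (Eno3 and Fbxo32) for KOWI over WT and 2 for KOWI over KO when arrays were taken as independent. Each tissue group holds 2 mice, and some probes lie near background.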
